A study of Mus musculus with 9 samples.

Results

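Taar2, Taar3, Taar4 and Taar5 are the 4 olfactory trace amine-associated receptor (TAAR) genes that lie next to TAAR enhancer 1, and they were chosen by their position in the gene cluster, as 4 of the 24421 gene rows of the count table. The data are RNA-seq counts from the whole main olfactory epithelium (MOE), where odours are detected, with 1 library from each of 9 mice. The labels give the strain as C57BL/6 and the age as postnatal day 14. The mice were littermates of 1 established line in which enhancer 1, between Taar1 and Taar2, had been removed by CRISPR-Cas9 editing, and the 3 genotypes had 3 mice each: wild type (WT), heterozygous (het, enhancer 1 +/-) and homozygous (homo, enhancer 1 -/-). The coding sequences of the Taar genes were not targeted in any group, and no library carried another labelled allele or treatment. The reporting summary of the study instead describes older mice and a mixed background, and it stayed unclear which of these applies here. The effects of this single deletion line cannot be told apart from effects of anything else linked to the edited chromosome.

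TAARs are G protein-coupled receptors that detect volatile amines. Apart from Taar1, which is not an olfactory receptor, each family member is expressed by its own small population of olfactory sensory neurons (OSNs), and an OSN as a rule expresses a single receptor gene from a single allele. TAAR5 is known as the receptor for trimethylamine and TAAR4 as a receptor for phenylethylamine, while TAAR3 responds to primary amines and the natural ligand of TAAR2 is less well established. An enhancer is a noncoding element that raises transcription of genes on the same chromosome. In whole tissue, fewer cells of a type and less RNA per cell cannot be told apart.

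On chromosome 10 of GRCm38, the 4 genes occupy 33.1 kb in a row on the plus strand, and no other annotated gene overlaps any of them. Taar2 (ENSMUSG00000059763.4, 23938572 to 23941583) lies nearest the deleted enhancer, with 17.1 kb between its annotated start and the end of Taar1. Taar3 (ENSMUSG00000069708.3, 23949558 to 23950589) follows after 7.97 kb, Taar4 (ENSMUSG00000069707.1, 23960494 to 23961537) after a further 9.90 kb and Taar5 (ENSMUSG00000069706.3, 23970706 to 23971719) after a further 9.17 kb. Taar6, the next gene, lies 12.9 kb beyond Taar5 on the opposite strand. Taar2 has 2 annotated exons, of 24 and 996 bases, whereas Taar3, Taar4 and Taar5 are single-exon genes. The gene models hold no untranslated regions, so lengths are coding lengths, between 1014 bases for Taar5 and 1044 bases for Taar4.

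The first 30 coding bases of each gene, from the GENCODE M21 transcripts of GRCm38, are shown to identify the 4 genes. The annotation used for counting is not given, so the counted gene models may differ from these, also in length. Capitals mark the whole first exon of Taar2 and the start codon of the other 3 genes.
Taar2: ATGGCATCTTTTGAAGCCCAGCAGgaaacc
Taar3: ATGgatctaatatacattcccgaagactta
Taar4: ATGaatacacccgacccctggagctcccca
Taar5: ATGagagctgtcctcctcccgggctctgga

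Reads could be assigned to single members of the group. Coding sequences of the 4 genes were between 53.2% identical, for Taar3 and Taar5, and 64.8% identical, for Taar2 and Taar3. The longest run of bases shared by any pair was 17 bases, in Taar2 and Taar4, and it is shown in capitals within 30 bases of each gene, at coding positions 868 to 897 of Taar2 and 898 to 927 of Taar4, counted from 1 at the start codon.
Taar2: tggttcGGTTATTTTAATTCCACatgtaat
Taar4: tggcttGGTTATTTTAATTCCACtttcaat
No stretch of 50, 100 or 150 bases of any of the 4 genes occurred in a transcript of another gene. The Taar7 and Taar8 genes, used below for comparison, are near-identical within each subfamily, so their single values are less certain.

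Gene counts summed to 24583906 to 32631951 reads in the 9 libraries, so 1 read was worth 0.0305 to 0.0406 CPM, the unit used here for reads scaled to a common TMM effective library size. Counting limits and intervals cover counting error only, since the reads carry no molecular identifiers. Libraries of 1 genotype differed by more than sampling noise, and each was counted as 1 mouse. The summed level of 4 markers of mature OSNs was 5913 to 5997 CPM in WT, 5954 to 6391 CPM in heterozygous and 6084 to 6595 CPM in homozygous libraries, and none of the 4 markers was called in any comparison. The same was found for the listed markers of immature OSNs, the dorsal and ventral zones, sustentacular cells, horizontal basal cells, motile cilia and olfactory ensheathing cells. Summed vomeronasal receptor genes, by contrast, gave 67.9 CPM for heterozygous replicate 1, and 120 and 69.5 CPM for homozygous replicates 2 and 3, but no more than 17.3 CPM in the other 6 libraries. Of these 330 receptor genes 55 had 0 reads in every library, as had Trpc2, the vomeronasal channel gene. The main results are also given without the 3 libraries above a limit of 50 CPM for the summed vomeronasal receptor genes. These are called the libraries with vomeronasal reads below, although every library held some. Leaving them out leaves 3 WT, 2 heterozygous and 1 homozygous library.

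The first question was how strongly each gene was expressed in intact mice. WT libraries 1, 2 and 3 held 65, 118 and 72 reads of Taar2, or 2.61, 3.60 and 2.78 CPM. Taar3 had 27, 48 and 23 reads, or 1.08, 1.47 and 0.889 CPM. For Taar4 the reads were 65, 82 and 51, or 2.61, 2.50 and 1.97 CPM. WT replicate 2 was the highest for Taar2 and Taar3 but not for Taar4. Taar5 had 70, 89 and 92 reads, or 2.81, 2.72 and 3.56 CPM, with the highest level in WT replicate 3.

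Per kilobase of coding length, the order of the WT levels was Taar5 at 2.99 ± 0.453 CPM per kb (SD, n = 3), Taar2 at 2.94 ± 0.521, Taar4 at 2.26 ± 0.328 and Taar3 at 1.11 ± 0.284. The ranges of Taar5 and Taar2 overlapped almost entirely, so these neighbours in the order did not differ beyond their spread. Taar4 reached at most 2.50 CPM per kb and stayed just below the lowest Taar2 library at 2.56. Taar3 reached at most 1.42 CPM per kb, below the lowest Taar4 library at 1.89. The level was lowest in the second gene of the row, so it did not follow the distance from the enhancer. The coefficient of variation between WT libraries was 14.5% to 25.6% per gene, against 10.8% to 17.5% from counting alone, and for the sum of the 4 genes it was 6.89% against 6.12%.

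In homozygous mice the 4 genes were almost absent. Taar2 had 1, 1 and 0 reads in homozygous libraries 1, 2 and 3, and Taar4 had 2, 0 and 1. Taar3 and Taar5 had 0 reads in all 3 libraries. No homozygous library reached the lowest WT or heterozygous library for any of the 4 genes. That also held for 9 of the other 10 olfactory Taar genes against WT, and for 7 of them against heterozygous libraries. Its share over all tested genes was not computed for these comparisons. The 5 residual reads were spread as 3, 1 and 1 over the homozygous libraries. Heterozygous and homozygous libraries are set beside WT in the plot of levels by library.

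**Figure D1:**
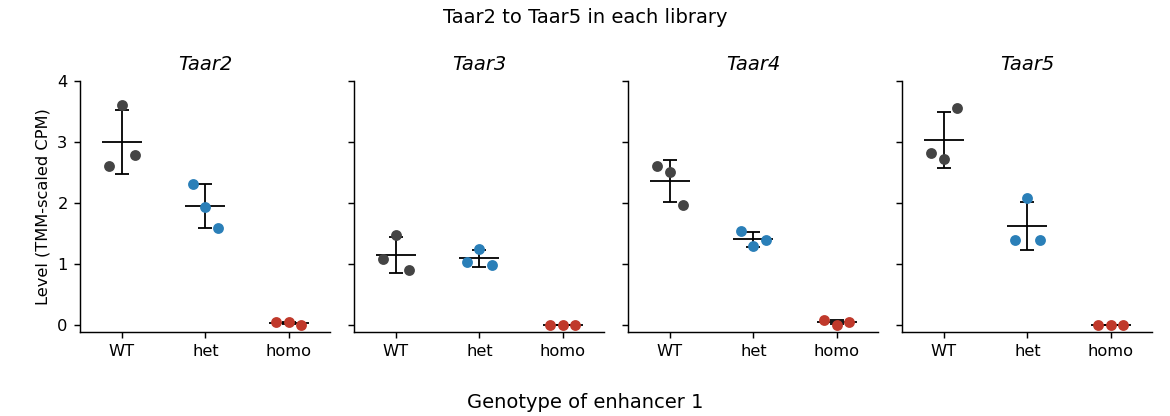
Level of Taar2, Taar3, Taar4 and Taar5 in TMM-scaled CPM (y axis) in each WT, heterozygous (het) and homozygous (homo) library (x axis). Points are mice, and bars are the mean and SD of 3 mice. All homozygous points lie at or below 0.0705 CPM, and heterozygous and WT points are mixed for Taar3 but separate for the other 3 genes.

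All 4 genes fell in homozygous against WT mice. The adjusted p was 3.17e-06 in the case of Taar2, 5.74e-06 in the case of both Taar4 and Taar5, and 0.000405 in the case of Taar3 (edgeR's quasi-likelihood test, Benjamini-Hochberg adjustment over 20213 genes). Of all tested genes 0.0445% were called lower in this comparison, or 9 genes, which include these 4. Taar2 was reduced to 0.831% of WT, from 255 reads to 2, with a 95% exact counting interval of 0.10% to 3.03%. Taar4 was reduced to 1.605% of WT, from 198 reads to 3, with an interval of 0.328% to 4.76%. These intervals overlapped, and both residual levels were too low to be ordered.

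For the genes with 0 reads, a lower bound was set with 3 reads over the group of 3 homozygous libraries, which correspond to 0.0381 CPM. By this floor Taar3 was at least 30.8-fold lower than in WT, where 98 reads were counted. Taar5 was at least 79.0-fold lower than in WT, where 251 reads were counted. The exact counting limits were weaker, at 24.6-fold for Taar3 and 63.8-fold for Taar5. These bounds differ with the WT read number, and 0 reads of Taar3 and Taar5 do not set these genes apart from Taar2 and Taar4. As a sum, the 4 genes were at 0.660% of WT, with 5 reads against 802 and a counting interval of 0.214% to 1.55%.

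The libraries with vomeronasal reads include homozygous replicates 2 and 3, and homozygous replicate 1 held 3 of the 5 residual reads. In that library alone Taar2 was at 1.15% of WT, from 1 read, with a counting interval of 0.029% to 6.49%, and Taar4 was at 2.97%, from 2 reads, with an interval of 0.357% to 10.9%. The sum was at 1.10%, with an interval of 0.226% to 3.23%. These values are 1.39 to 1.85 times those over 3 libraries and lie within their counting intervals. With 3 reads in this library as the floor, or 0.106 CPM, Taar3 was at least 11.1-fold and Taar5 at least 28.4-fold lower than in WT. The exact upper limits were 11.3% of WT for Taar3 and 4.36% for Taar5. In a fit of the 6 other libraries the spread comes from the WT and heterozygous groups. The unshrunk log2 fold change of Taar4 against WT was then -5.07 rather than -5.96 (edgeR). Adjusted p-values over the fits that left out 1 of the 9 libraries were at most 0.00258, for Taar3. Each of the 4 genes was thus called in each of these fits.

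The second enhancer copy was compared by setting homozygous against heterozygous mice. All 4 genes fell, with an edgeR adjusted p of 3.31e-05 for Taar2, 7.11e-05 for both Taar4 and Taar5, and 0.000638 for Taar3, beside 0.0989% of all tested genes called lower. Relative to heterozygous mice, Taar2 was at 1.31%, with a counting interval of 0.157% to 4.80%, and Taar4 was at 2.71%, with an interval of 0.551% to 8.12%. Taar3 was at least 28.4-fold lower and Taar5 at least 42.2-fold lower, by the same 3-read bound. The exact counting limits were 22.7-fold for Taar3 and 33.8-fold for Taar5. Without the 3 libraries with vomeronasal reads, Taar2 and Taar5 were still called but Taar3 (edgeR adjusted p = 0.0791) and Taar4 (edgeR adjusted p = 0.0517) were not. Taar3 then had 0 reads in the single homozygous library against 62 in the heterozygous ones, at least 10.5-fold lower by the 3-read floor. Its exact upper limit was 12.1% of heterozygous. Taar4 was at 5.26% of heterozygous, with a counting interval of 0.626% to 19.7%. The unshrunk log2 fold change of Taar4 was -4.25 rather than -5.21 (edgeR).

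With 1 intact enhancer copy the 4 genes gave unlike values. Heterozygous libraries 1, 2 and 3 held 65, 51 and 47 reads of Taar2, or 2.32, 1.93 and 1.59 CPM, all below the lowest WT library. Taar4 had 43, 34 and 41 reads, or 1.53, 1.29 and 1.39 CPM, and Taar5 had 39, 55 and 41 reads, or 1.39, 2.08 and 1.39 CPM. For both of these genes too, every heterozygous library lay below every WT library. Taar3 had 29, 33 and 29 reads, or 1.03, 1.25 and 0.981 CPM, which lay inside the WT range of 0.889 to 1.47 CPM.

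Mean heterozygous levels were 64.8% ± 12.1 of the WT mean for Taar2, 59.3% ± 5.24 for Taar4, 53.4% ± 13.2 for Taar5 and 94.8% ± 12.3 for Taar3 (SD, n = 3 each). None of the 4 genes passed the test across all genes (edgeR adjusted p = 0.99997 for each). Of all tested genes 0.00495%, or 1 gene, was called lower. Before adjustment, p was 0.0108 for Taar2, 0.00600 for Taar4, 0.00169 for Taar5 and 0.769 for Taar3 (edgeR), so 3 of the 4 genes had an unadjusted p under 0.05 with a lower level, beside 1.49% of all tested genes. These same 3 genes were the ones in which every heterozygous library lay below every WT library, which held for 4.32% of all tested genes. The median log2 fold change was -0.69 over the 4 genes and 0.0033 over all tested genes.

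Whether 1 enhancer copy gave 50% of the WT level was examined with the interval of each log2 fold change, in which a value of -1 corresponds to 50%. For Taar2 the fitted log2 fold change was -0.63 (SE 0.22, edgeR), with a 95% interval of -1.10 to -0.17. Taar4 had -0.75 (SE 0.24), with an interval of -1.26 to -0.25, and Taar5 had -0.91 (SE 0.23), with an interval of -1.40 to -0.41. The unadjusted intervals of these 3 genes included -1 and left out 0. For Taar3 the fitted value was -0.09 (SE 0.31), and its interval, from -0.75 to 0.57, included 0 and left out -1.

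**Figure D2:**
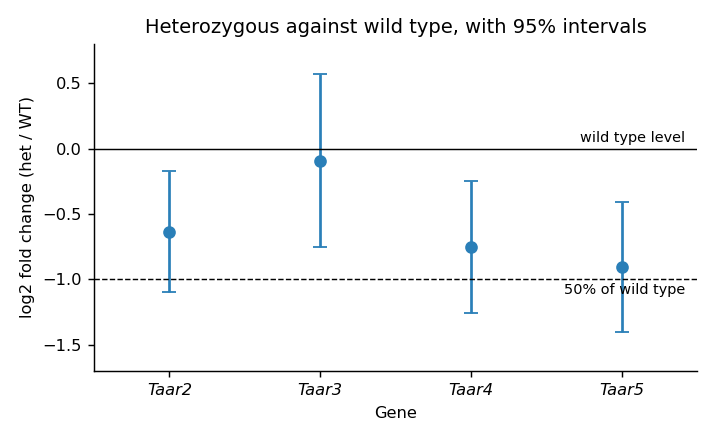
Log2 fold change of heterozygous against WT mice (y axis) for the 4 genes (x axis), from 3 mice each, with unadjusted 95% intervals as bars. The solid line is the WT level and the dashed line is 50% of it. The intervals of Taar2, Taar4 and Taar5 cross the dashed line, and that of Taar3, from -0.75 to 0.57, lies above it.

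Set against 50% of each WT library by an exact permutation test, the heterozygous libraries gave p = 0.1 for Taar3, 0.2 for Taar2, 0.2 for Taar4 and 0.7 for Taar5 (two-sided). With 3 mice per group 0.1 is the smallest p this test allows. All 3 heterozygous libraries lay above 50% of the WT mean for Taar2, Taar3 and Taar4, but only 1 of 3 did for Taar5. The sum of the 4 genes was 6.27, 6.54 and 5.34 CPM in the heterozygous libraries, against 9.11, 10.3 and 9.20 CPM in the WT libraries. Its mean was thus 63.5% of WT, which exceeded 50% in all 3 libraries (two-sided exact permutation test, p = 0.1, the smallest possible). The value without heterozygous replicate 1, the heterozygous library with vomeronasal reads, was 62.3%, and the single genes were then at 58.6% for Taar2, 56.6% for Taar4, 57.2% for Taar5 and 97.2% for Taar3. Without that library and the 2 homozygous ones, log2 fold changes were -0.78 for Taar2, -0.82 for Taar4, -0.81 for Taar5 and -0.06 for Taar3 (edgeR), and none was called.

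The order of the levels per kilobase was partly different in heterozygous mice. Taar2 was highest with 1.91 ± 0.356 CPM per kb (SD, n = 3), followed by Taar5 with 1.596 ± 0.394, Taar4 with 1.34 ± 0.119 and Taar3 with 1.05 ± 0.137. The ranges of Taar2 and Taar5 overlapped, as did those of Taar5 and Taar4, and without heterozygous replicate 1 the means of Taar2 and Taar5 were 1.72 and 1.71 CPM per kb. Taar3 stayed lowest, and its highest library at 1.21 CPM per kb was just below the lowest Taar4 library at 1.23.

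Ratios between the genes do not depend on library size, so the composition of the 4-gene sum was compared next. In the WT libraries Taar3 made up 11.9%, 14.2% and 9.66% of the reads of the 4 genes, and in the heterozygous libraries 16.5%, 19.1% and 18.4%. The groups did not overlap, and the mean share of Taar3 was 6.04 percentage points higher in heterozygous mice (two-sided exact permutation test, p = 0.1, adjusted p = 0.4 over the 4 shares). The exact binomial 95% intervals of single libraries were wide, for instance 10.7% to 18.4% in WT replicate 2 and 11.3% to 22.8% in heterozygous replicate 1.

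The other 3 shares overlapped between the genotypes. Taar2 made up 31.3% ± 3.32 of the reads in WT and 32.1% ± 4.23 in heterozygous mice (SD, n = 3 each; exact permutation p = 0.7, adjusted p = 0.7). For Taar4 the shares were 24.8% ± 3.63 and 23.3% ± 3.29 (exact permutation p = 0.7, adjusted p = 0.7). Taar5 made up 32.0% ± 6.20 in WT and 26.6% ± 4.85 in heterozygous mice (exact permutation p = 0.4, adjusted p = 0.7). The signs of the Taar2 and Taar4 differences depended on single libraries: without heterozygous replicate 1 the Taar2 difference was -1.69 percentage points rather than 0.752, and without WT replicate 1 the Taar4 difference was 0.464 rather than -1.45. The Taar5 difference was -1.99 without WT replicate 3 and -3.10 without heterozygous replicate 1, rather than -5.33 percentage points. Without heterozygous replicate 1 the Taar3 difference was 6.78 and the Taar4 difference -1.997 percentage points, and the 3 ratios that involve Taar3, given next, still did not overlap WT.

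**Figure D3:**
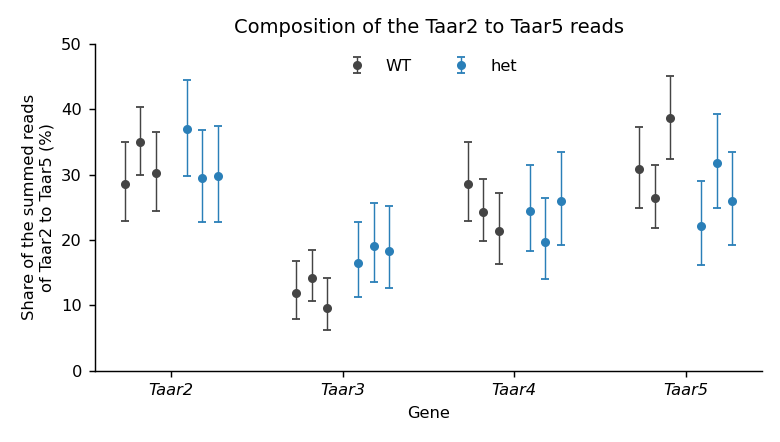
Share of each gene in the summed reads of Taar2 to Taar5 in percent (y axis), for 3 WT and 3 heterozygous (het) libraries per gene (x axis), with exact binomial 95% intervals as bars. The Taar3 shares are 9.66% to 14.2% in WT and 16.5% to 19.1% in heterozygous libraries, and the points of the other 3 genes overlap.

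Of the 6 pairwise ratios of read numbers, the 3 that involve Taar3 did not overlap between WT and heterozygous libraries. Taar2 over Taar3 was 2.41 to 3.13 in WT and 1.55 to 2.24 in heterozygous libraries. Taar3 over Taar4 was 0.415 to 0.585 in WT and 0.674 to 0.971 in heterozygous libraries, and Taar3 over Taar5 was 0.250 to 0.539 and 0.60 to 0.744. Each of these 3 had a two-sided exact permutation p = 0.1, the smallest possible, and an adjusted p = 0.2 over the 6 ratios. Ratios among Taar2, Taar4 and Taar5 overlapped, with exact permutation p = 0.5 and adjusted p = 0.5 for each, and their log2 means differed by 0.12 to 0.29 between the genotypes.

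The comparison of ratios therefore set Taar3 apart in direction, in 3 of 3 libraries, but no ratio or share passed the adjustment. The share and the 3 ratios rest on the same Taar3 reads and are not separate results. In the study's counts of labelled cells per section, a measure other than RNA level, heterozygous Taar3 was reduced about as much as Taar2 and Taar5. Taar4 was reduced less in those counts. Part of the Taar3 value rested on WT replicate 2, which had 48 of the 98 WT reads. Without this library the log2 fold change of Taar3 was 0.14 rather than -0.09, and the fits that left out other libraries gave values down to -0.24 (edgeR adjusted p from 0.997 to 1.00). The interval of Taar3 left out 50% of WT in each of these fits, with the lower limit nearest to it 0.019 above -1 on the log2 scale, without heterozygous replicate 2.

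Whether the 4 genes differed from the rest of the cluster was tested by their share in the reads of all 14 olfactory Taar genes. The share was 20.3%, 23.1% and 20.6% in the WT libraries, 16.7%, 16.9% and 14.7% in the heterozygous libraries and 0.418%, 0.211% and 0.179% in the homozygous libraries. The 3 genotypes did not overlap. The difference was -21.0 percentage points for homozygous minus WT mice, -5.21 for heterozygous minus WT mice and -15.8 for homozygous minus heterozygous mice (two-sided exact permutation test, p = 0.1 for each, adjusted p = 0.1 over the 3 pairs, the smallest possible). Over the 6 genes outside the Taar7 and Taar8 subfamilies, the difference for homozygous minus WT mice was -46.8 percentage points. Per coding length the genotypes did not overlap either. Without the 3 libraries with vomeronasal reads, the differences were -20.9, -5.50 and -15.4 percentage points, in the same order.

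In absolute terms, the 4 genes lost 9.48 CPM in homozygous mice, or 99.4% of their WT sum, and the other 10 genes lost 13.3 CPM, or 37.6% of theirs. In heterozygous mice the losses were 3.49 CPM, or 36.5%, for the 4 genes and 3.74 CPM, or 10.6%, for the other 10. The sum of the other 10 genes was 34.3 to 35.8 CPM in WT, 30.9 to 32.3 CPM in heterozygous and 19.2 to 25.2 CPM in homozygous libraries. In homozygous replicate 1 alone the loss was 98.9% for the 4 genes and 28.6% for the other 10.

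Along the cluster, the homozygous levels were higher at Taar6 than at Taar2 to Taar5. Taar6 kept 48.8% ± 12.2 of its WT mean (SD, n = 3), with 132, 75 and 81 reads, and its fitted 95% interval of 38.9% to 62.1% of WT did not reach the counting intervals of Taar2 or Taar4. Homozygous replicate 1 was the highest, at 63.3% of WT (counting interval 52.1% to 76.6%). Of the other 10 olfactory Taar genes, 4 fell (Taar6, Taar7a, Taar7b and Taar9) and 1 rose (Taar7e) in homozygous against WT mice at an edgeR adjusted p under 0.05. Taar9, at the opposite end of the cluster, was at 5.95% ± 1.91 of its WT mean, with 13 reads against 234. Its counting interval of 3.09% to 10.3% overlapped that of Taar4 but not that of Taar2. The fitted 95% intervals of Taar9, 3.66% to 9.43% of WT, and of Taar4, 0.834% to 3.10%, did not overlap. However, the fitted Taar4 interval rests on 3 reads and is narrower than its counting interval of 0.328% to 4.76%. It therefore cannot separate Taar9 from Taar4. In homozygous replicate 1 alone Taar9 was at 3.77%, from 3 reads. Low residual reads were also seen for Taar8a, with 0 reads against 17 in WT, and for Taar8c, with 2 against 18, or 11.3% of the WT mean, although neither was called (edgeR adjusted p = 0.273 and 0.413). Low or absent reads in homozygous mice were thus not limited to the 4 genes beside the enhancer. None of the 10 genes was called between heterozygous and WT mice. For Taar7a and Taar7b, however, every heterozygous library lay below every WT library, which held for 4.32% of all tested genes. For Taar7e every heterozygous library lay above, an order whose share over all tested genes was not computed. Taar7b was at 69.2% ± 10.7 of its WT mean, with an unadjusted p of 0.00869 (edgeR), beside 0.0108 for Taar2. A lower heterozygous level, although called for none of these genes, was thus not limited to the 4 genes beside the enhancer either. Taar1, on the other side of the deleted enhancer, had 1 read over the 9 libraries.

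**Figure D4:**
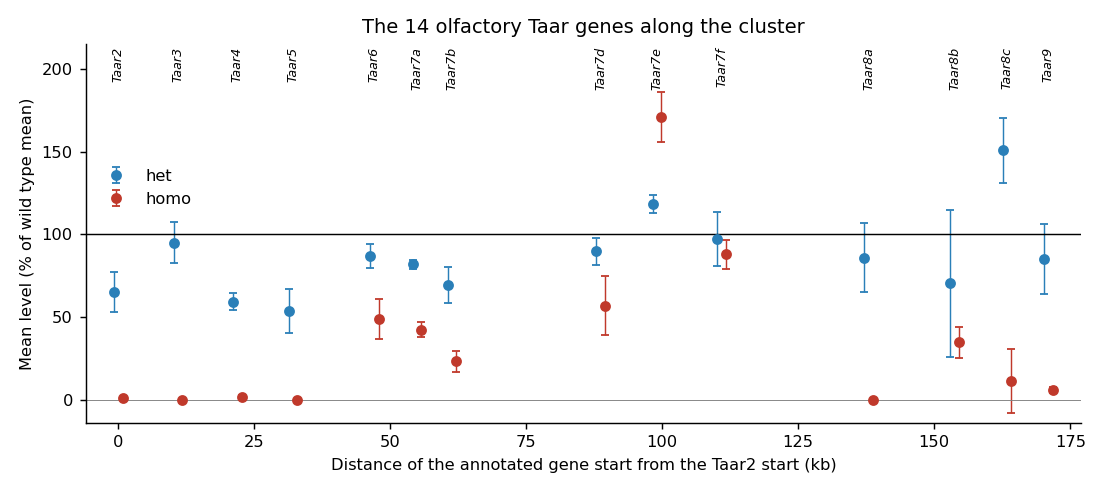
Mean level of each of the 14 olfactory Taar genes in percent of its WT mean (y axis, linear), against the distance of the annotated gene start from that of Taar2 in kb (x axis), for heterozygous (het) and homozygous (homo) mice. Bars are the SD of 3 mice, and the solid line is the WT level. In homozygous mice the first 4 genes lie at or below 1.54%, and Taar6, at 47.1 kb, lies at 48.8%.

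The profile of the 4-gene sum over the 9 libraries, each as percent of the WT mean, was compared with that of 17192 genes that had at least 0.5 CPM on average in WT. The measure was the root mean square difference, which was 6.64 percentage points for Taar2, 8.23 for Taar4, 11.9 for Taar5 and 20.7 for Taar3, all of which are parts of that sum. The 5 nearest genes outside it were Taar7b at 15.8 and Taar9 at 16.8, then Gad1 at 22.7, Kcnj14 at 24.7 and Taar7a at 26.9. Taar7b and Taar9 were thus nearer to the sum than Taar3 was. Gad1, which encodes a GABA-synthesizing enzyme, and Kcnj14, which encodes a potassium channel, were expressed at 0.700 and 0.527 CPM in WT, near the minimum used. Gad1 was at 67.0% of WT in heterozygous and 28.0% in homozygous mice, and Kcnj14 was at 56.1% and 36.1%. Both were picked among 17192 genes for these same values, so the percentages are no separate evidence of a change in either gene.

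None of the genes listed for olfactory signalling and receptor choice in OSNs passed the test. Of 14 such genes, among them the G protein subunit gene Gnal, the adenylyl cyclase gene Adcy3, the receptor transporter genes Rtp1 and Rtp2 and the regulators Lhx2, Ldb1 and Ebf1, 0 were called in any of the 3 comparisons by edgeR. Their log2 fold changes ran from -0.01 to 0.21 in homozygous against WT mice, with a lowest edgeR adjusted p = 0.237. Of the 14 genes 5 had an unadjusted p under 0.05, beside 1872 of all 20213 tested genes. In heterozygous against WT mice the log2 fold changes ran from -0.01 to 0.12. There 0 of 14 had an unadjusted p under 0.05, beside 656 of all 20213 tested genes.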

How the data were processed

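Whole MOE RNA of 9 mice was profiled by the authors with a polyA-selected, directional library kit. Per the labels, the tools were Trimmomatic 0.36, HISAT2 2.1.0, HTSeq 0.6.1p1 and DESeq2 1.20.0 on GRCm38 (mm10). The study's methods name another counter, and the annotation and strand setting are not given in the sources used here. The deposited table holds raw counts per gene. A second deposited table holds the authors' normalized signal, counts divided by a DESeq2 size factor, and was used only to check the first. Rows that name no gene were left out. Per library, 57.4% to 60.0% of the tabulated reads lay in genes, 21.6% to 22.4% in no feature and 16.9% to 19.4% were not unique.

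Genes with at least 10 summed counts (20213) were normalized by TMM and tested with edgeR 4.0.16 in R 4.3.3 (quasi-likelihood, genotype only, all 9 libraries, Benjamini-Hochberg threshold 0.05). Intervals of log2 fold changes come from the unshrunk coefficients. Shares, ratios and sums were compared by two-sided exact permutation tests (SciPy 1.17.1). Percentages of residual reads have exact conditional binomial intervals, and a gene with 0 reads was set to 3 reads over its group. P-values measure the spread between the mice sampled. Genes named are the 4 members, the other 10 olfactory Taar genes and Taar1, 14 signalling and receptor choice genes, marker lists and the 5 genes outside the members nearest in profile to their sum. The members and lists were chosen with earlier results of these data known. Coding sequences were aligned end to end with Biopython 1.88. The scripts were tested on simulated data. Replicate numbers were not taken to pair the mice in the main tests. Same-numbered libraries correlated by -0.21 to 0.092 in their deviations from the genotype means. Differently numbered libraries were not compared, so this cannot exclude that same-numbered mice shared a litter. Alternatives were other size factors, filters and tools, the replicate block, fewer libraries and other denominators.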

Additional observations from a re-analysis of the deposited data

How the results depend on the processing

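The 4 genes were called lower in homozygous against WT mice under every alternative that gave them an adjusted p, including leaving out each library in turn (4 to 4 genes), and none was called between heterozygous and WT mice under any (0 to 0). DESeq2 1.42.0 with default settings gave none of the 4 genes an adjusted p for homozygous against WT or against heterozygous mice, and without independent filtering it called all 4 in both. Leaving out the 3 libraries with vomeronasal reads left 2 of the 4 genes called between homozygous and heterozygous mice; this fit has 1 homozygous library, which is assumed to vary like the others. With the replicate number as a block, 4, 0 and 4 genes were called for homozygous against WT, heterozygous against WT and homozygous against heterozygous mice, as without it. For the shares the block cannot change a mean difference, and its sign-flip test cannot give a p under 0.25. The cause of the differences was not tested.

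The distance of the heterozygous Taar3 level from 50% of WT was 0.91 on the log2 scale, and 0.92 in the exact permutation test (p = 0.1), which cannot pass the threshold. Leaving out single libraries gave 0.76 to 1.14 for Taar3 and -0.12 to 0.22 for Taar5. The Taar2 share difference between heterozygous and WT mice ran from -1.69 to 2.61 percentage points and that of Taar4 from -3.14 to 0.464. The heterozygous sum ran from 60.9% to 67.2% of WT. Chosen after seeing the data, the shares and residual levels were also computed without the libraries with vomeronasal reads, which turned the Taar2 share difference to -1.69 and gave residual levels of 1.15% for Taar2 and 2.97% for Taar4. Without single libraries, the residual level ran from 0.604% to 1.24% of WT for Taar2 and from 0.836%, without homozygous replicate 1, to 2.33% for Taar4. The Taar3 log2 fold change between heterozygous and WT mice ran from -0.24 to 0.14, the latter without WT replicate 2. At these depths, with 23 to 118 reads per gene in a WT library, heterozygous differences of the size seen here did not pass the adjustment.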
